A study of Mus musculus with 8 samples.

Results

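Hi-C compartment scores of mouse embryonic stem cells (mESCs) that had lost SETDB1 and were treated with the G9a/GLP inhibitor UNC0642 were compared with those of untreated cells of the same line, to find which bins and domains changed when both activities were lost. The compared items were the 100-kb autosomal bins with a non-zero score in both libraries, 23987 of the 24005 bins scored in any library of the series. Of the 18 bins left out, 3 were lacking in the untreated library, 5 in the treated one and 10 in both. The untreated library, Setdb1 WT, came from the line #33-6 Setdb1 conditional KO mES without any agent. The treated library, Setdb1 KO + UNC, came from the same line after 2 days of 4-hydroxytamoxifen (4-OHT) at 800 nM, which removes SETDB1 in these cells, followed by 3 days of UNC0642 at 2 µM. Setdb1 KO received 4-OHT at 800 nM for 5 days, and Setdb1 WT + UNC received UNC0642 at 2 µM for 3 days. The Suv39h WT and Suv39h DKO cells (ADF1-26 WT mES and ADF157 Suv39h1/2 DKO mES, the latter without SUV39H1 and SUV39H2) were each used without and with UNC0642 at 2 µM for 3 days. Each of the 8 groups held 1 library, each genotype was a single line, and no group received 4-OHT without removal of SETDB1, so that 4-OHT, its duration and SETDB1 loss cannot be told apart. Compartment scores carry no transcript levels, so neither the loss of SETDB1 nor the cell type could be checked in them.

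SETDB1 is a histone methyltransferase that places H3K9me3 on retroelements, to which it is brought by KRAB zinc finger proteins and TRIM28. G9a and GLP form a heterodimer that places most H3K9me2, which covers broad domains of inactive chromatin. Hi-C divides chromosomes into an A compartment, rich in active genes, and a B compartment, rich in silent and lamina-bound chromatin. The compartment score is the first eigenvector of the contact map of a chromosome. A positive score marks A and a negative score marks B, and the score has no unit.

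The profile of Setdb1 KO + UNC remained close to that of Setdb1 WT. No second library of either group was analysed here, so whether the pair differed more than repeats of 1 group was not tested. The study lists correlations of scores between its Hi-C repeats for both groups, which were not used here. Pearson's r across bins was 0.988, and by autosome it was lowest on chromosome 13 (0.977) and highest on chromosome 8 (0.994). The change in score, Setdb1 KO + UNC minus Setdb1 WT, had an SD across bins of 0.00425, against an SD of the scores themselves of 0.0274 in each library. The quartiles of the change were -0.00263 and 0.00253, and its 1st and 99th percentiles were -0.0104 and 0.0109. Among the 28 pairs of libraries, this SD was the third smallest, above Setdb1 KO + UNC minus Setdb1 KO (0.00395) and Setdb1 KO minus Setdb1 WT (0.00413). Between the untreated lines, Suv39h WT minus Setdb1 WT, it was 0.00679. Setdb1 WT + UNC stood apart from the other libraries of its line, with SDs of 0.00579 to Setdb1 WT, 0.00652 to Setdb1 KO and 0.00707 to Setdb1 KO + UNC. Its SDs to Suv39h WT + UNC (0.00569) and to Suv39h DKO + UNC (0.00573) were smaller than any within its line. Setdb1 WT + UNC is not part of the compared pair, and results that use it are named as such.

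A change of at least 0.01 was used to call a bin rising or falling. There were 351 rising bins (1.46% of bins) and 283 falling bins (1.18%), 63.4 Mb in all. The highest single value was 0.0260 and the lowest was -0.0232. The threshold did not fall in a gap, since the rising bin nearest to it changed by 0.0100046 and the next bin below it by 0.00999913, and on the other side the values were -0.0100034 and -0.00999713. Changes of neighbouring bins were weakly alike, with a correlation of 0.148 between adjacent bins and 0.0772 at a distance of 5 bins. The corresponding value between the untreated lines was 0.476 for adjacent bins.

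**Figure D1:**
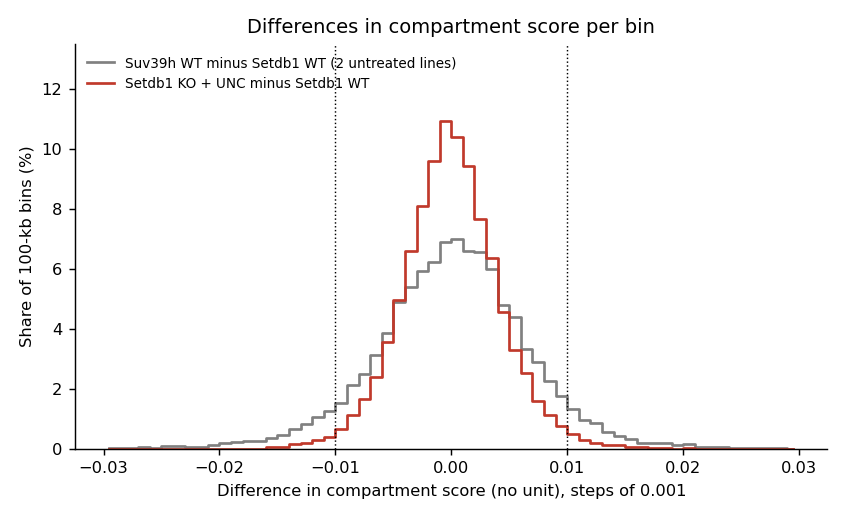
Distribution of the difference in compartment score per 100-kb bin for Setdb1 KO + UNC minus Setdb1 WT (red) and for Suv39h WT minus Setdb1 WT (grey), which share the Setdb1 WT library. Dotted lines mark changes of 0.01 in either direction, beyond which 351 and 283 bins of the first comparison lay; 39 bins of the second lie outside the axis.

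With 1 library a side, the difference itself has no replicate error and no test. The only test available was an additive limma fit over all 8 libraries, in which removal of SETDB1, removal of SUV39H1/2, line and UNC0642 each had a term and the removal of SETDB1 and UNC0642 were summed. It left 3 residual degrees of freedom and assumed that both effects add. Of the 23972 bins tested, limma called 0 rising (0%) and 0 falling (0%) with a threshold of 0.05 on the adjusted p, none of which went under 0.993. Unadjusted, 566 rising and 472 falling bins (4.33%) had p under 0.05. The regions described here are therefore differences between single libraries, and none of them passed this test.

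Most bins kept their compartment. The sign of the score was maintained in 96.4% of bins (95% Wilson interval 96.2 to 96.7, which covers the number of bins and not the spread between libraries). Switches from B to A were found in 449 bins (1.87%) and switches from A to B in 409 (1.71%). These bins lay near 0 to begin with, with a median score of -0.00255 in Setdb1 WT and 0.00241 in Setdb1 KO + UNC for B to A, and of 0.00213 and -0.00220 for A to B. Only 75 of the B to A bins and 52 of the A to B bins changed by at least 0.01, and 15 and 13 lay beyond 0.005 on both sides of 0. Next to a compartment border of Setdb1 WT lay 71.4% of the switching bins, against 14.9% of all bins. Of the bins beside a border 17.1% switched, and of the other bins 1.20%.

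Compartment borders shifted slightly. Setdb1 WT had 2038 borders and Setdb1 KO + UNC had 2112. Of the former, 65.8% were at the same place in Setdb1 KO + UNC, 22.3% had moved by 1 bin and 11.9% had no counterpart within 1 bin. B to A bins formed 37 runs of 2 or more adjacent bins, the longest of 6 bins, and A to B bins formed 32, the longest of 3. Among domains of at least 3 bins in Setdb1 WT, 1 of 705 B domains and 0 of 609 A domains changed sign in every bin.

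The 1 B domain that switched whole was the vomeronasal receptor cluster at chr13:22100001-22700000 (mm10), which holds 17 protein-coding genes from Vmn1r189 to Vmn1r206. Type 1 vomeronasal receptors are pheromone receptors of sensory neurons and are silent in mESCs. Setdb1 WT averaged -0.00405 over the domain and Setdb1 KO + UNC 0.00837, and the changes of its 6 bins lay between 0.00554 and 0.0187. Setdb1 KO averaged 0.01002, so the value with both treatments was lower than with SETDB1 removal without the inhibitor. Setdb1 WT + UNC averaged -0.0143. The Suv39h libraries averaged -0.0136 (WT), -0.0128 (WT + UNC), -0.0123 (DKO) and -0.0175 (DKO + UNC). Setdb1 KO and Setdb1 KO + UNC were thus the 2 libraries with a positive mean here, and the other 6 were negative. The switch of sign rested on the zero point of each chromosome. With the implied chromosome mean added back, 4 of the 6 bins were B in Setdb1 WT, and with it subtracted, 5 of the 6 were A in Setdb1 KO + UNC, so that under neither was the domain lost whole. The mean change was then 0.0127 and 0.0122, against 0.0124 as deposited.

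Rising bins formed 34 runs of at least 2 adjacent bins, covering 75 bins, of which 29 runs had 2 bins, 3 had 3 and 2 had 4. Chromosome 13 held 8 of them. Falling bins formed 11 runs, all of 2 bins, 4 of them on chromosome 19. With the threshold scaled to each chromosome's score SD there were 4 falling runs in all, and 2 falling bins on chromosome 19. The difference between both counts was not tested. Runs were chosen on Setdb1 KO + UNC and Setdb1 WT, so the ranks of these libraries within a run follow in part from the choice.

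The first of the longest rising runs was at chr9:7200001-7600000, over 8 protein-coding genes from Dcun1d5 to Mmp27. It is a matrix metalloproteinase cluster, whose products are secreted enzymes that cut extracellular matrix, and Mmp13, a collagenase, lies at chr9:7272514-7283331 on the plus strand. Setdb1 WT had a mean score of 0.00218, Setdb1 KO of 0.0119 and Setdb1 KO + UNC of 0.0171, a change of 0.0149. Setdb1 WT + UNC had -0.0155, and the Suv39h libraries had -0.0126 (WT), -0.0130 (WT + UNC), -0.0105 (DKO) and -0.0107 (DKO + UNC). The 3 libraries with a positive mean were all of the Setdb1 line, and Setdb1 WT + UNC sat with the Suv39h lines.

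The second run of 4 bins, at chr3:31200001-31600000, holds Slc7a14, which belongs to a family of cationic amino acid transporters (chr3:31202858-31310378, minus strand). Setdb1 WT had a mean score of 0.0116, Setdb1 KO of 0.0208 and Setdb1 KO + UNC of 0.0230. Setdb1 WT + UNC had 0.00552, and the 4 Suv39h libraries lay between 0.00759 and 0.01004. All 8 means were positive, so the run deepened within A. Its bins changed by 0.0107 to 0.0126, a likeness that the floor of 0.01 for a rising bin favours. The bins differed in the place of Setdb1 KO. At chr3:31200001-31300000 it scored 0.0160, below Setdb1 WT (0.0172). At chr3:31300001-31400000 and chr3:31500001-31600000 it scored 0.0210 and 0.0189, above Setdb1 KO + UNC (0.0157 and 0.0179). Only at chr3:31400001-31500000 did it lie between Setdb1 WT and Setdb1 KO + UNC (0.0271 against 0.0192 and 0.0299).

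A run of 3 bins at chr19:39700001-40000000 covers Cyp2c68, Cyp2c40, Cyp2c69 and Cyp2c37, cytochrome P450 genes that are mainly known from the liver. Here Setdb1 WT had a mean score of -0.0250, Setdb1 KO of -0.0156 and Setdb1 KO + UNC of -0.00711, a change of 0.0179. Setdb1 WT + UNC had -0.0409, and the Suv39h libraries lay between -0.0459 and -0.0373. The run stayed in B on average in every library. The order of the Setdb1 libraries was the same as in the Mmp run, with Setdb1 WT + UNC lowest and Setdb1 KO + UNC highest.

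A further pair of 3-bin runs completed the 5 longest. At chr5:104600001-104900000, which holds the zinc finger gene Zfp951, Setdb1 WT had a mean score of -0.00930, Setdb1 KO of -0.00312 and Setdb1 KO + UNC of 0.00364. At chr10:30400001-30700000, with Trmt11 (a tRNA methyltransferase subunit), Hint3 and Ncoa7, the means were -0.00141, 0.00320 and 0.00923 in the same order. Setdb1 WT + UNC had -0.0191 in the former and -0.000754 in the latter. The Suv39h libraries ranged from -0.0116 to -0.00314 in the former and from -0.00220 to 0.00571 in the latter. In both, Setdb1 KO + UNC had the highest of the 8 means, a rank that the choice of runs favours. Over the 5 runs the additive limma fit gave mean estimates of 0.0179, 0.0129, 0.0214, 0.0127 and 0.00766, with mean SEs of 0.00622, 0.00416, 0.00674, 0.00480 and 0.00455 and a limma adjusted p of 0.993 throughout. The fit includes the libraries on which the runs were chosen, so these estimates are not independent of the choice.

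**Figure D2:**
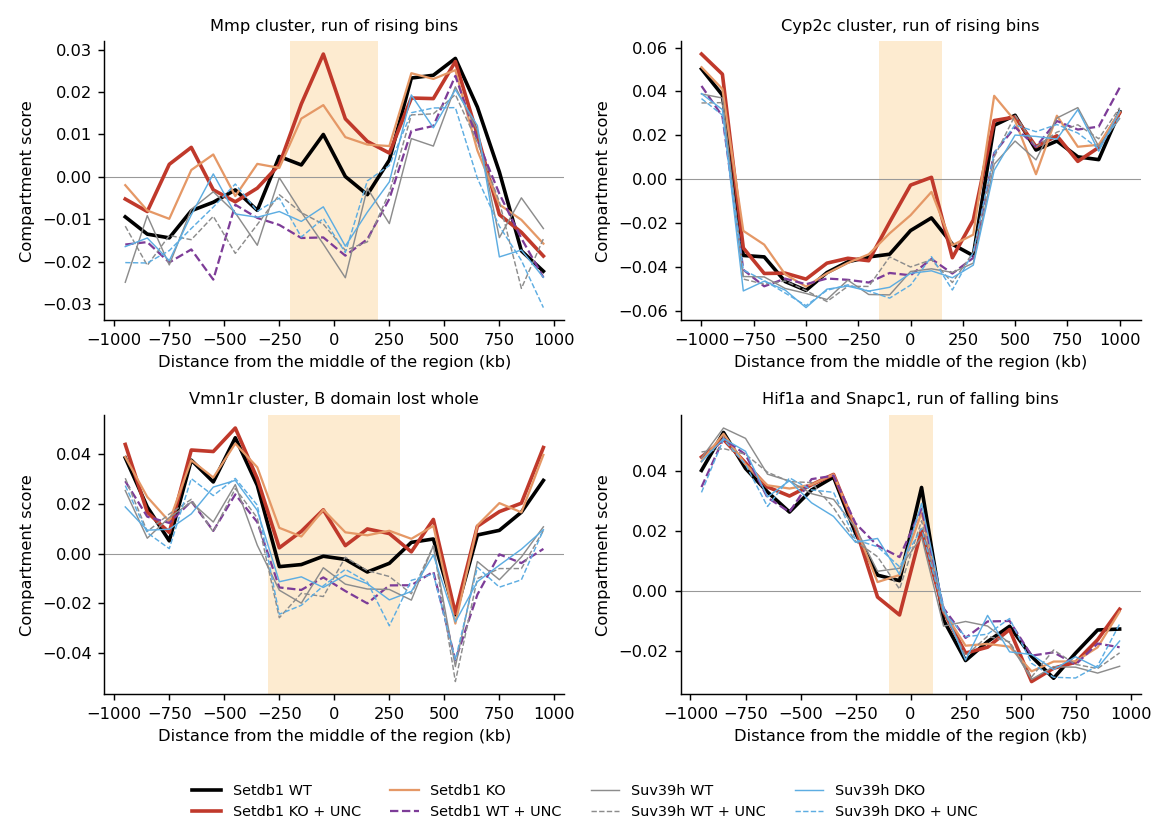
Compartment score of each 100-kb bin against its distance in kb from the middle of 4 regions, with 1 line for each of the 8 libraries and the region shaded. In the Mmp, Cyp2c and Vmn1r clusters Setdb1 KO + UNC (red) and Setdb1 KO (orange) lay above Setdb1 WT (black), with mean changes of 0.0149, 0.0179 and 0.0124 for red against black; over Hif1a and Snapc1 the red line lay below the black one, with a mean change of -0.0129.

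To show the sequence of promoters in these regions, 7 of them are printed. They are the first promoter by position in each of the first 3 rising and the first 3 falling runs that hold one not yet taken, and in the Vmn1r domain. Each is the 250 bases before the RefSeq start of the gene (GRCm38.p6), 5′ to 3′ on the strand of the gene, with every CG in capitals. CG reads the same on both strands. From rising regions come Mmp13 (chr9:7272264-7272513, plus strand, 1 CG), Slc7a14 (chr3:31310320-31310569, minus strand, 15 CG), Cyp2c68 (chr19:39741102-39741351, minus strand, 1 CG) and Vmn1r189 (chr13:22102666-22102915, minus strand, 2 CG). From falling regions come Atrnl1 (chr19:57610784-57611033, plus strand, 31 CG), Ppp1r3c (chr19:36736605-36736854, minus strand, 20 CG) and Hif1a (chr12:73907617-73907866, plus strand, 14 CG). The RefSeq starts used can differ from the ends of the annotated gene spans. For Hif1a and Vmn1r189 the printed bases lie wholly inside the span of the gene, for Slc7a14 and Ppp1r3c in part, and for Cyp2c68 the start lies just outside it.
Mmp13: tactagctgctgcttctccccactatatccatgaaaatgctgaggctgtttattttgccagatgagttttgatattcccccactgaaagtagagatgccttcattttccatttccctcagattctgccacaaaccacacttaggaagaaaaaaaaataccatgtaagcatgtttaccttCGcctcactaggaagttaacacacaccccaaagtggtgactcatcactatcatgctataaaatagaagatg
Slc7a14: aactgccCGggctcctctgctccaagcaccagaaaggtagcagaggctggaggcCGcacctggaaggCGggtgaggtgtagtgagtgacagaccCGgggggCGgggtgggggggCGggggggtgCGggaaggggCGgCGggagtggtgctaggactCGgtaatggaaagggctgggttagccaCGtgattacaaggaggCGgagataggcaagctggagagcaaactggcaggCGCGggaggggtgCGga
Cyp2c68: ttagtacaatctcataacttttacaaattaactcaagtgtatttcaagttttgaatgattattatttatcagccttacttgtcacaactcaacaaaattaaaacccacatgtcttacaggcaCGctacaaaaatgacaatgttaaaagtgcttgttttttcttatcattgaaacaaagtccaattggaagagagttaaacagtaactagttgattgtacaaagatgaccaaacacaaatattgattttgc
Vmn1r189: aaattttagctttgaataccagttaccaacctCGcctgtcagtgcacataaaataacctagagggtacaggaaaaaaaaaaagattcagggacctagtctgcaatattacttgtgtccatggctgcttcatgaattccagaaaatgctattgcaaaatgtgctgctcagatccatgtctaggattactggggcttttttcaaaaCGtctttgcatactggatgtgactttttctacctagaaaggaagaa
Atrnl1: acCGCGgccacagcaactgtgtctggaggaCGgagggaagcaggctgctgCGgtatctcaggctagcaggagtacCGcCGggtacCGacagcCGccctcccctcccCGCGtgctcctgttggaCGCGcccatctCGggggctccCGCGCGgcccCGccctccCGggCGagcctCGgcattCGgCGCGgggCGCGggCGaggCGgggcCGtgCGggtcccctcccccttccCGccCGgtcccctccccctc
Ppp1r3c: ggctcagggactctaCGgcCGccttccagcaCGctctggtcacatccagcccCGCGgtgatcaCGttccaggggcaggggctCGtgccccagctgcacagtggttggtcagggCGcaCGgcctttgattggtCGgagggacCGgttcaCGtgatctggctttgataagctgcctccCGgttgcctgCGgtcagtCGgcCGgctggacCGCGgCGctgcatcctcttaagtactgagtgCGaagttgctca
Hif1a: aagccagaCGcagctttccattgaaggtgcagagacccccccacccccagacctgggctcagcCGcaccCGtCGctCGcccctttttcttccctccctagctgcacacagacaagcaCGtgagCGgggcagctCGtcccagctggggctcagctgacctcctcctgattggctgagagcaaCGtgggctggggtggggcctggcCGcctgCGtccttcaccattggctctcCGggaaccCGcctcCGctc
The CG content of these promoters overlapped between directions, since Slc7a14 in a rising run had 15 CG and Hif1a in a falling run had 14. Across the whole table, the 212 promoters in rising bins had a median of 4 CG in 300 bases (250 before to 50 after the start), the 146 in falling bins had 16, and all 19113 had 14. At least 15 CG were present in 25.5% of promoters in rising bins, 52.1% in falling bins and 49.5% of all. At least 1 CG was present in 88.2%, 96.6% and 95.8%. Several promoters of a cluster share a bin, and no test was made of these shares. Of the 351 rising bins 224 were B in Setdb1 WT, and of the 283 falling bins 132. Bins in B had a median of 5.96 CG per kb and bins in A of 11.02. The promoters were not split by compartment, so its part in the difference was not tested.

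The falling runs were shorter. At chr19:57500001-57700000 and chr19:58000001-58200000 they covered the start and the end of Atrnl1, a long gene of the attractin family (chr19:57611034-58133343, plus strand). In the first, Setdb1 WT had a mean score of 0.0388, Setdb1 KO of 0.0322 and Setdb1 KO + UNC of 0.0247, and the other 5 libraries lay between 0.0380 and 0.0426. Setdb1 KO + UNC was the lowest of the 8 and Setdb1 KO the next, both still in A. In the second, Setdb1 WT had -0.00572, Setdb1 KO -0.00674 and Setdb1 KO + UNC -0.0194, while Setdb1 WT + UNC had -0.000406 and the Suv39h libraries -0.00309 to 0.00735. The 2 bins of this run differed in their order. The first scored 0.00291 in Setdb1 WT, -0.00841 in Setdb1 KO and -0.00872 with both treatments, and the second -0.0144, -0.00506 and -0.0301, so that Setdb1 KO was below Setdb1 WT in one and above it in the other.

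At chr19:36600001-36800000, with Hectd2 and Ppp1r3c (a glycogen-targeting subunit of protein phosphatase), Setdb1 WT had a mean score of 0.00286, Setdb1 KO of -0.00642 and Setdb1 KO + UNC of -0.0112. Setdb1 WT + UNC had 0.00365, and the Suv39h libraries had -0.0101, -0.00341, -0.00324 and 0.00166 (WT, WT + UNC, DKO and DKO + UNC), so that Suv39h WT overlapped with the fall. At chr12:73800001-74000000 lie Hif1a, the oxygen-regulated transcription factor subunit (chr12:73901375-73947530, plus strand), Gm49321, Snapc1 and Syt16. Setdb1 WT averaged 0.0191 there, Setdb1 WT + UNC 0.0195, Setdb1 KO 0.0158 and Setdb1 KO + UNC 0.00622, and the Suv39h libraries 0.0121 to 0.0174. Setdb1 KO + UNC was below the other 7 libraries, a rank that the choice of runs favours. At chr13:45300001-45500000, with the E3 ubiquitin ligase gene Mylip, the means were 0.0401, 0.0437, 0.0379 and 0.0279 in the same order, and 0.0314 to 0.0369 in the Suv39h libraries. The additive limma estimates over the 5 falling runs were -0.0138, -0.0102, -0.00761, -0.0115 and -0.0106 with SEs from 0.00400 to 0.00696, and again the limma adjusted p was 0.993 for each. They too rest in part on the libraries that chose the runs.

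The single bins with the largest change were only in part inside runs. The highest, chr18:54300001-54400000, holds no protein-coding gene and scored -0.00402 in Setdb1 WT, 0.00979 in Setdb1 KO and 0.0220 with both treatments, while Setdb1 WT + UNC and the Suv39h libraries had -0.0366 to -0.0272. The next, chr3:15600001-15700000 (a change of 0.0245), consists of unknown bases for 89.3% of its length, and chr4:146800001-146900000 (0.0229, Gm21411) for 52.3%, so fewer read pairs can support their scores. The remaining 2 lie on chromosome 13, at 8700001-8800000 across the end of Adarb2, an RNA-editing enzyme homologue (0.0220), and at 11300001-11400000 without a gene (0.0216). Their neighbouring bins changed by -0.00396 and 0.00597, and by -0.00487 and 0.00142.

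In the falling direction the lowest bin was chr13:103000001-103100000 inside Mast4, a kinase gene, which scored -0.000476 in Setdb1 WT, -0.00656 in Setdb1 KO, -0.0236 with both treatments and -0.00458 to 0.000546 in the other 5 libraries. The others were chr12:52800001-52900000 in Akap6, an anchoring protein of protein kinase A (-0.0209), chr1:20500001-20600000 in Pkhd1 (-0.0180), chr3:15400001-15500000 with Sirpb1a and Sirpb1b (-0.0175) and chr18:30100001-30200000 without a gene (-0.0171). Each of these is 1 value in each library.

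Larger domains moved little. Over the 1029 domains of Setdb1 WT with at least 5 bins, the mean change had an SD of 0.00193, 21 domains changed by at least 0.005 upward and 6 downward. The following 3 domains were picked after their values were seen. Next to the Mmp run, the B domain at chr9:5700001-7100000 (14 bins, with Pdgfd, Ddi1 and Dync2h1) scored -0.00839 in Setdb1 WT, -0.00146 in Setdb1 KO and -0.000990 with both treatments. The A domain at chr13:66800001-67900000 (11 bins, 36 genes, a zinc finger gene cluster) scored 0.0280 in Setdb1 WT, 0.0288 in Setdb1 KO and 0.0350 with both treatments. The A domain at chr15:63900001-64400000 (Gsdmc4, Fam49b and Asap1) had 0.0121, 0.00588 and 0.00543. In the first and the third the value of Setdb1 KO was already close to that with both treatments, and in the second it was close to Setdb1 WT.

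The changed bins were unequally spread over the autosomes. On chromosome 13, 10.2% of bins changed (69 rising and 51 falling), on chromosome 19 7.72%, on chromosome 18 6.96% and on chromosome 3 4.97%, against 0.225% on chromosome 2. These 4 chromosomes held 17.5% of the bins and 47.95% of the changed ones. Scores of short chromosomes are larger because each eigenvector has about unit length, with an SD in Setdb1 WT of 0.0219 on chromosome 2 and 0.0406 on chromosome 19. Set against this SD, the SD of the change was highest on chromosome 13 (a ratio of 0.214), chromosome 3 (0.198) and chromosome 1 (0.179), while chromosome 19 had 0.143 and chromosome 18 0.169. With a threshold scaled to each chromosome's score SD, an alternative chosen after seeing the data, the same 4 chromosomes held 40.8% of the changed bins but the order of chromosomes changed. Chromosome 13 then had 59 rising and 42 falling bins, chromosome 3 had 52 and 50, and chromosome 1 had 43 and 33 in place of 14 and 11. Chromosome 18 had 15 and 16 in place of 28 and 33, and chromosome 19 had 8 and 2 in place of 26 and 19.

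**Figure D3:**
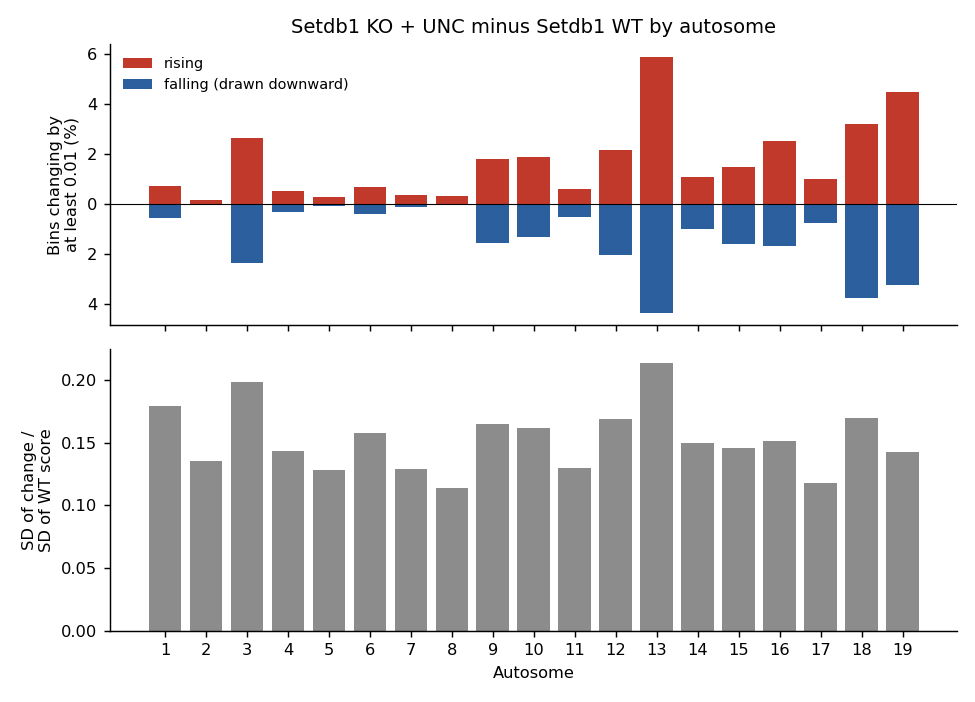
Top, share of 100-kb bins on each autosome that rose (red, upward) or fell (blue, downward) by at least 0.01 in Setdb1 KO + UNC minus Setdb1 WT. Bottom, SD of the change across the bins of an autosome divided by the SD of its Setdb1 WT scores; chromosome 13 is highest in both, with 10.2% of bins changed and a ratio of 0.214.

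The counts also varied with the position along the chromosome and with the starting score. Of the 1893 bins in the first 10 Mb scored, on the centromere side of mouse chromosomes, 3.38% rose and 2.11% fell, against 1.31% and 1.09% in the rest and 1.05% and 1.37% in the last 5 Mb. Of bins with a Setdb1 WT score below -0.03, 1.43% rose and 0.421% fell, and of bins above 0.03, 0.406% rose and 1.10% fell. Both shares were highest near 0, with 2.29% rising and 1.66% falling at -0.01 to 0, and 2.36% and 1.98% at 0 to 0.01. At 0.01 to 0.03 they were 1.44% and 1.46%, and at -0.03 to -0.01 they were 1.57% and 0.983%. The Setdb1 WT score is also part of the change, so an error in it lowers one and raises the other, and the share of this in the pattern was not tested.

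Rising bins were rich in repeats and falling bins were poor in them. The share of soft-masked (interspersed repeat and low-complexity) bases had a median of 41.1% in rising bins, 26.2% in falling bins and 31.7% in all bins. The same order held within bins that were B in Setdb1 WT (44.4%, 31.2% and 36.5%) and within A bins (35.6%, 24.5% and 27.8%). With bins divided into 5 groups of about equal number by soft-masked content, 0.417% rose and 2.13% fell in the group with the fewest soft-masked bases, and 3.42% rose and 0.667% fell in the group with the most. The correlation of the change with soft-masked content was 0.194 across bins and positive on all 19 autosomes (0.121 to 0.300). It was 0.107 with the number of DpnII sites (positive on 19) and -0.0942 with GC content (negative on 19). The scores come from DpnII fragments, and bins that share these base properties are not independent, so no p is given and the part of digestion, mapping or GC content in the relation was not tested.

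From the repeat-poorest to the repeat-richest of the 5 groups, the median change was -0.00101, -0.000469, -0.000108, 0.000408 and 0.00103. For Setdb1 KO minus Setdb1 WT the medians were -0.000344, -0.000405, -0.000405, -0.000163 and 0.000797, above 0 in the richest group only. For Setdb1 KO + UNC minus Setdb1 KO they were -0.000735, -0.000125, 0.000201, 0.000451 and 0.000185. Both comparisons share a library with the compared pair. In Setdb1 KO minus Setdb1 WT + UNC, which shares no library with the compared pair, the medians of the poorest and richest groups were -0.00296 and 0.00212, in the same order. In Suv39h DKO + UNC minus Suv39h WT, also without a shared library, they were 0.00156 and -0.000840, in the reverse order. Between the untreated lines they were 0.00132 and -0.000275, with the last 3 groups between -0.000275 and -0.000207. The relation with repeats thus had opposite signs in the Setdb1 and Suv39h lines when genotype and inhibitor were changed together, and the difference was not tested. Setdb1 KO minus Setdb1 WT + UNC holds the library that stands apart in its line, and its part in these medians was not tested.

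**Figure D4:**
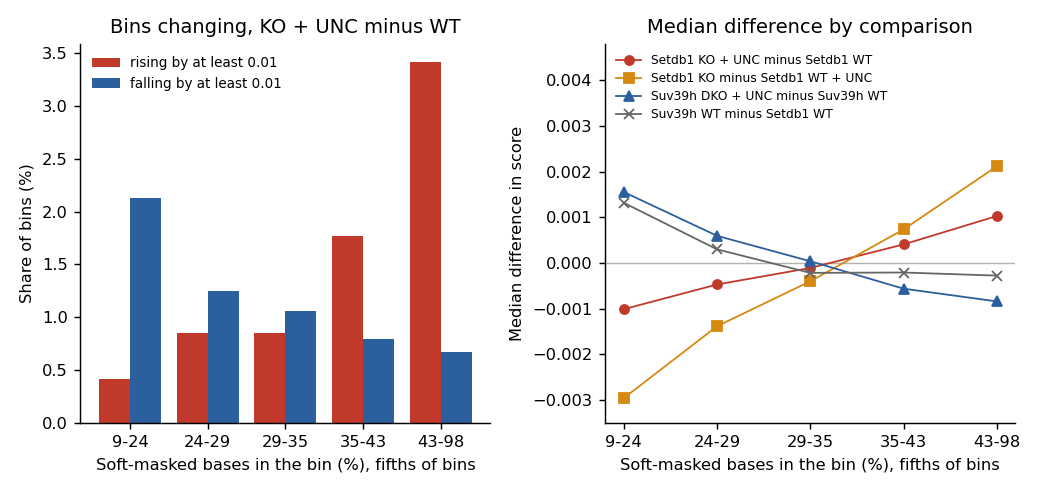
Bins in 5 groups of about equal number by soft-masked base content (x axis, percent of bases). Left, share of bins rising (red) or falling (blue) by at least 0.01 in Setdb1 KO + UNC minus Setdb1 WT, with rises going from 0.417% to 3.42% and falls from 2.13% to 0.667%; right, median difference in score in 4 comparisons, upward from left to right in both Setdb1 comparisons, downward in Suv39h DKO + UNC minus Suv39h WT, and falling over the first 3 groups then nearly level between the untreated lines.

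The same bins were read in libraries that the choice of rising and falling bins did not use. Setdb1 KO and Setdb1 WT + UNC form such a pair, in which SETDB1 removal has the same sign and UNC0642 the opposite one. Of the 351 rising bins, 293 (83.5%) were higher in Setdb1 KO than in Setdb1 WT + UNC, against 46.8% of all bins, and 164 (46.7%) by at least 0.01, against 6.03% of all bins. Of the 283 falling bins, 206 (72.8%) were lower, against 53.2% of all bins, and 50 (17.7%) by at least 0.01, against 4.41% of all bins. Across 23972 bins, both differences correlated at 0.326 (0.182 to 0.454 by autosome). Setdb1 WT + UNC is the library that stands apart in its line, and its part in these values was not tested.

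In the Suv39h lines the same bins showed no common direction. For Suv39h DKO + UNC minus Suv39h WT, 49.3% of rising bins were above 0 and 46.3% of falling bins were below 0, against 50.8% above and 49.2% below for all bins. Across bins it correlated at -0.0319 with the change described here. The median score of the rising bins was -0.00692 in Setdb1 WT, -0.0132 with UNC0642, 0.00167 with SETDB1 removed, 0.00591 with both and -0.0109 to -0.00884 in the Suv39h libraries. In the same order, that of the falling bins was 0.00310, 0.000470, -0.00426, -0.00872 and -0.00141 to 0.00234. Setdb1 KO lay between Setdb1 WT and Setdb1 KO + UNC in both sets, which were chosen on the last 2. The comparisons of Setdb1 KO with either of them share a library with this choice. Their medians were 0.00773 (Setdb1 KO minus Setdb1 WT) and 0.00491 (Setdb1 KO + UNC minus Setdb1 KO) in rising bins, and -0.00649 and -0.00556 in falling bins.

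Gene families were read at the bin that holds the start of each gene. The 10050 bins with a protein-coding start had a median change of 0.0000362, 1.38% of them rose and 1.03% fell. Of the 18 lists, the stefin A cluster on chromosome 16, which encodes inhibitors of cysteine proteases, had the highest median, 0.0102 over 4 bins. This list is 1 cluster that holds a rising run of 2 bins. Lists were chosen with earlier results of these data known, so its rank is not an independent result. The bin of Csta1, Stfa2l1 and Gm5483 rose by 0.0175, that of Stfa1 by 0.0105 and that of Stfa2 and Stfa3 by just over 0.01, and that of BC100530 and BC117090 had 0.00692. The first of these bins scored 0.0312 in Setdb1 WT, 0.0192 with UNC0642, 0.0445 with SETDB1 removed, 0.0487 with both and 0.0325 to 0.0413 in the Suv39h libraries. The bin of Stfa1 scored 0.0216, 0.00405, 0.0416 and 0.0321 in the same order, so that there Setdb1 KO and not Setdb1 KO + UNC was highest. All 4 Suv39h libraries were in B at that bin, from -0.0125 to -0.00614, which is further from Setdb1 WT than the change described. Over the 4 bins Setdb1 KO had a median score of 0.0260 and Setdb1 KO + UNC of 0.0239.

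Receptor and zinc finger families had small positive medians with single clusters that moved further. Vomeronasal type 1 receptors had a median of 0.00182 over 95 bins, 6 rising and 0 falling (highest Vmn1r198 and neighbours in its bin, 0.0187, and lowest Vmn1r224 and neighbours, -0.00873). Their 12 bins on chromosome 13 had a median of 0.00756 with 4 rising, the 51 on chromosome 7 had 0.00136 and the 22 on chromosome 6 had 0.00194. Vomeronasal type 2 receptors had 4 rising and 1 falling of 93 bins (median 0.00102; highest Vmn2r42, 0.0142, and lowest Vmn2r48, -0.0102). Olfactory receptors had 7 rising and 1 falling of 333 bins (median 0.00117; highest Olfr58, 0.0153, and lowest Olfr549, -0.0105). Genes named Zfp had 7 rising and 2 falling of 279 bins (median 0.000729), with 4 of the rising ones among the 21 bins of chromosome 13, where the median was 0.00508. Zfp273 was highest (0.0155) and Zfp973 lowest (-0.0129). These shares of rising bins, 6.32%, 4.30%, 2.10% and 2.51%, stand beside 1.38% for all gene bins, and the families are repeat-rich, with medians of 55.9%, 52.1%, 45.9% and 33.8% soft-masked bases against 30.1%.

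Genes of the two-cell stage, which are briefly expressed in early embryos, had 2 rising and 0 falling of 17 bins, namely those of Tdpoz4 (0.0122) and Zfp352 (0.0106), with a median of 0.00219 and Usp17ld lowest (-0.00302). The histone list took 61 genes by symbol, mostly of the Hist1 cluster on chromosome 13 but with variants elsewhere. Of its 14 bins 2 rose, which hold Hist1h2ap (0.0123) and Hist1h4h (0.0122) among others, and the lowest was H2afj (-0.00497). In both of these bins Setdb1 KO (0.0307 and 0.0370) was close to Setdb1 WT (0.0289 and 0.0368), and Setdb1 KO + UNC had 0.0411 and 0.0490. Clustered protocadherins, adhesion proteins of neurons, had 1 rising bin of 10, that of Pcdha1 (0.0110), and the lowest was Pcdhga2 (-0.00688).

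No bin rose or fell in 8 of the lists. The genes of the H3K9 methylation machinery lay in A and changed by -0.00412 to 0.00446, with Wiz lowest and Atf7ip highest, and -0.00188 for Setdb1, -0.00129 for Ehmt2 (G9a), 0.00170 for Ehmt1 (GLP), -0.000914 for Trim28, -0.00180 for Cbx1, -0.0000165 for Cbx3, 0.000393 for Cbx5, 0.000747 for Setdb2 and 0.00104 for Suv39h2. Suv39h1 is X-linked and was not scored. Of the pluripotency genes Dppa3 (0.00676) and Zfp42 (0.00562) had the highest values. Pou5f1 (-0.000629), Sox2 (-0.000196), Nanog (0.000981), Esrrb (-0.000740), Klf2 (-0.000811), Klf4 (-0.000908), Klf5 (-0.000857), Tbx3 (-0.000535) and Lin28a (0.000103) stayed within 0.001 of Setdb1 WT, and Tfcp2l1 had -0.00335. The extremes were Hormad1 (0.00921) and Tex101 (-0.00448) among germline genes, Meg3 (0.00791) and Cdkn1c (-0.00593) among imprinted genes, and Pdx1 (0.00543) and Runx1 (-0.00783) among lineage regulators. They were Hoxb8 (0.00642) and Hoxc13 (-0.00212) among Hox genes, and Defa21 (0.00802) and Defa32 (-0.00343) among defensins. Of the 18 bins of long neuronal genes, 8 had a change above 0.

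Keratin genes had 0 rising and 1 falling bin of 33, that of Krt87 and neighbours (-0.0110), with Krt33a highest (0.00785). Genes with ribosomal protein symbols, which include gene models named as pseudogenes, had 2 rising and 1 falling of 89 bins, with Rpl9-ps6 (0.0125) and Rps12-ps3 (-0.0126) at the ends. The lowest list medians were those of lineage regulators (-0.00165), long neuronal genes (-0.00128) and keratins (-0.000840). The range within every list of more than 4 bins included 0.

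**Figure D5:**
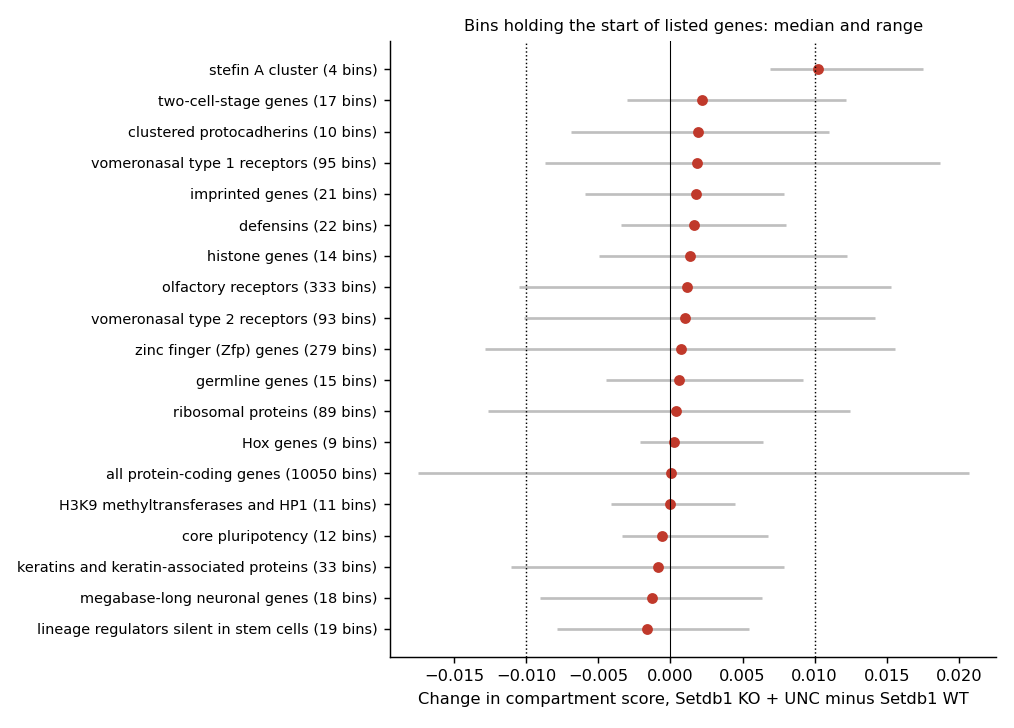
Change in compartment score, Setdb1 KO + UNC minus Setdb1 WT, of the bins that hold the start of listed genes. Points are medians over bins and grey lines run from the lowest to the highest bin. Dotted lines mark 0.01 in either direction, and the median of the stefin A list (0.0102, 4 bins of 1 cluster) is the 1 that passes it.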

How the data were processed

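The authors cut mESC chromatin with DpnII, aligned the Hi-C reads to mm10 with the 4D Nucleome pipeline and a mapping quality threshold of 10, and used Juicer Tools to build KR-normalised maps and their first eigenvector in 100-kb bins. The deposited values are these eigenvectors, a score per bin and library with no read counts. The study lists read numbers for each repeat of the Hi-C, but which repeat or pool each file holds is not stated, so they were not used here and no interval for reads is given. Each chromosome averages 0 in each library, so a general shift cannot appear. The mean implied by a unit-length eigenvector had a median over autosomes of 0.00583 in Setdb1 WT and 0.00608 in Setdb1 KO + UNC; its subtraction is inferred and not described by the authors.

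Scores were subtracted as deposited. Bins changing by at least 0.01 were called rising or falling, as the study classes bins in steps of this size. With 1 library a group, no p was computed for the difference. The additive fit used limma 3.58.1 in R 4.3.3 with Benjamini-Hochberg adjustment. It was also run on simulated data, whose outcome is not given here and is not used to back the 0 calls. Python 3.11.15 with pandas 2.3.3 was used for the rest. Genes came from GENCODE vM21 (20807 protein-coding autosomal genes) and promoters from RefSeq, both on GRCm38 (19113 promoters matched by symbol), which shares coordinates with mm10. The text names, in each direction, the 5 longest runs, the 5 bins of largest change and domains lost whole, with their genes, and for each gene list every member up to 12 genes, otherwise the highest and lowest, except that 1 long neuronal gene is not reported here and none of that list is named. Members and lists were chosen with earlier results of these data known. Alternatives were other scalings, GC removal, 500-kb means, other thresholds and leaving out libraries from the fit. Sex chromosomes are not analysed here.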

Additional observations from a re-analysis of the deposited data

How the results depend on the processing

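Of 82 values of the main results under alternatives, 57 stayed within 1.5 times of the count or within the interval or spread of the value. The other 25 moved further. The limma counts, 0 throughout, are part of the 57. Only the correlation could reverse under the rule used, and it kept its sign. The mean changes of the 21 named regions kept their sign in all 105 values, at 0.957 to 1.33 times the value as deposited. These regions were chosen for their changes and the settings rework the same scores, so the kept signs do not measure reproducibility. The shares of bins maintained, going B to A and going A to B were 95.7%, 2.26% and 2.02% where the mean implied for each chromosome was added, 96.8%, 1.66% and 1.54% where it was subtracted, 97.8%, 1.31% and 0.894% with means of 500 kb, and 99.2%, 0.453% and 0.333% over bins with a Setdb1 WT score of at least 0.005 either way. Domains lost whole numbered 2 for B with quantile normalization, and 2 for B and 1 for A with the mean subtracted. With the mean added the 1 B domain lost was chr7:5400001-5700000 and not the Vmn1r cluster. With 500-kb means 5 regions rose and 1 fell by at least 0.01, and the correlation with Setdb1 KO minus Setdb1 WT + UNC was 0.605. At a change of 0.02 there were 9 rising and 2 falling bins, in 0 and 0 runs. Runs of at least 3 bins numbered 5 rising and 0 falling. With the threshold scaled to each chromosome's score SD, chosen after seeing the data, there were 4 falling runs. The cause of these moves was not tested beyond what each setting changes by construction.

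Limma called 0 bins under all 7 alternatives, with lowest adjusted p between 0.986 and 1.00. Without Setdb1 WT + UNC there were 451 rising and 415 falling bins at an unadjusted p under 0.05, and with the 4 libraries of the Setdb1 line 250 and 222. No paired analysis was possible because each group has 1 library and the labels carry no replicate numbers. The score files hold no contact counts, so changes were not set against counting error here.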
